A study of Mus musculus with 12 samples.

Results

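Lipolysis and lipid droplet genes were examined in mouse primary white adipocytes that had received a let-7d-5p mimic, a let-7e-5p mimic or a negative control. The set holds 10 genes, Lipe, Pnpla2, Mgll, Abhd5, G0s2, Plin1, Plin2, Plin4, Cidec and Fitm2, chosen by gene symbol for their known roles and matched to the count table through their Ensembl identifiers. The choice was made with earlier results of these data known. All 10 were found among the 15754 genes of the table. The study sequenced total RNA of 12 libraries, 4 per group. All cells came from the stromal vascular fraction of epididymal white fat (eWAT) of male, wild-type (WT) C57BL/6 mice on chow at 8 weeks of age, and all were grown and differentiated in culture. Every group, the controls included, was induced with insulin at 850 nM, IBMX (a phosphodiesterase inhibitor) at 250 µM and both dexamethasone and rosiglitazone at 1 µM, and then kept in rosiglitazone and insulin. Transfection took place on day 4 after induction and harvest on day 7. The labels do not say whether animals were pooled or whether libraries of a group came from separate cultures, so the error behind each p-value is that between the libraries of a group and may be technical.

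White adipocytes store energy as triglyceride in a large lipid droplet and release it as fatty acids and glycerol when catecholamines raise cyclic AMP. Triglyceride is cut in sequence by adipose triglyceride lipase (encoded by Pnpla2), hormone-sensitive lipase (Lipe) and monoglyceride lipase (Mgll), while ABHD5 activates and G0S2 inhibits the first of these. Perilipins (Plin1, Plin2, Plin4) coat the droplet, CIDEC lets droplets fuse and grow, and FITM2 acts in the endoplasmic reticulum where droplets form. Several of the components of the culture medium act on this system: rosiglitazone activates PPARγ, a known activator of many droplet and lipase genes, insulin restrains lipolysis and IBMX blocks the breakdown of cyclic AMP.

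The mature sequences of the microRNAs that the mimics are named for are shown because the mimics share a seed, the stretch that pairs with target messages. They are RefSeq entries on GRCm38.p6, 22 bases long, printed 5′ to 3′ with the seed (bases 2 to 8) in capitals.
mmu-let-7d-5p: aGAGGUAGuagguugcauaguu
mmu-let-7e-5p: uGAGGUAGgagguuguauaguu
The mature sequence of the first lies on chromosome 13 (48536078 to 48536099, minus strand) and that of the second on chromosome 17 (17830366 to 17830387, plus strand). Both have the seed GAGGUAG. They differ by A1U, U9G and C16U, with the let-7d base first and positions counted from the 5′ end.

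Matches to this seed were sought in the longest annotated coding 3′UTR of each gene (GRCm38, GENCODE vM21), as 7mer-m8 (pairing with bases 2 to 8), 7mer-A1 (bases 2 to 7 followed by A) or 8mer (both). Mgll held 2 and Cidec 1, and the other 8 genes held none. They are printed on the gene's strand with the match in capitals.
Mgll, 7mer-m8, chr6:88826726-88826732, plus strand: cagtagcacagCTACCTCtggtggtagg
Mgll, 7mer-A1, chr6:88827051-88827057, plus strand: gggccttgctgtTACCTCAggagtcctg
Cidec, 7mer-A1, chr6:113424634-113424640, minus strand: tatttatgctgaTACCTCA
Such a match was present in 2302 of 13584 such 3′UTRs, or 16.9%, against 2 of the 10 genes. A match is a description of the letters and does not show that the site is used.

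Replicates 1 and 2 of each group carry sample identifiers of one numbering and replicates 3 and 4 those of another. They are called ID run 1 and ID run 2, or run 1 and run 2, and what the numberings stand for is not stated in the labels. Total counts were 15071299 to 25610151 in run 1 and 23744175 to 33396316 in run 2, with 639 to 45910 counts for each of the 10 genes in each library. Because the runs differed in nearly everything measured, with 81.7% of all genes called between them, values below are given run by run. They are CPM (counts scaled to a common library size) after TMM scaling, and a gene is called at an adjusted p under 0.05 in edgeR's quasi-likelihood test, adjusted by Benjamini-Hochberg over all 15754 genes. Log2 differences are given ± standard error (SE), from 4 libraries per group over both runs and 2 per group within a run.

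The 10 genes were far lower in run 2 than in run 1. Together they took 0.776 to 0.908% of all counts in run 1 and 0.121 to 0.154% in run 2. All 10 fell between the runs, beside 40.0% of all genes that were called lower. Pnpla2 fell by 3.63 ± 0.076 (adjusted p = 6.63e-16), the widest gap of the set, and Plin1 fell by 3.45 on the log2 scale. Abhd5 and Plin2 had the narrowest gaps, Abhd5 having decreased by 1.41 and Plin2 by 1.56. In bulk RNA, fewer adipocytes and less of each message per adipocyte cannot be told apart. General adipocyte markers moved the same way: 9 of the 9 measured (adiponectin and Pparg among them) fell, with a median log2 difference of -2.03, and their summed level was 5512 to 6118 CPM in run 1 and 1302 to 1833 CPM in run 2. All 9 had counts in every library of both runs, while the remaining marker of the list, Lep (leptin), was not in the count table. Of 10 preadipocyte markers, 8 were called higher in run 2 and 2 lower (Pdgfra and Col1a1), with a median of 1.35, beside 81.7% of all genes called. Their summed level, which includes Col1a1, was 16426 to 20367.5 CPM in run 1 and 7498 to 8475 CPM in run 2.

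Levels of different genes were set side by side as CPM per kilobase of exon, as means of the 2 controls of each run. Cidec led in both runs, at 874 in run 1 and 166 in run 2. In run 1 it was followed by Pnpla2 (603), G0s2 (465), Plin1 (310.5), Plin2 (282), Lipe (152), Plin4 (115), Mgll (100.36), Fitm2 (56.0) and Abhd5 (38.7). This order was the same in both controls of run 1, although the ranges of Plin1 and Plin2, and of Plin4 and Mgll, overlapped between the libraries. In run 2 the order after Cidec was G0s2 (104), Plin2 (90.9), Pnpla2 (53.6), Plin1 (30.5), Lipe (18.5), Mgll (16.1), Abhd5 (15.2), Plin4 (13.8) and Fitm2 (9.33). Here too both controls gave the same order, while the ranges of G0s2 and Plin2 overlapped between them, as did that of Abhd5 with those of Mgll and Plin4. The message of the lipase Pnpla2 stood above that of its inhibitor G0s2 in run 1 and below it in run 2.

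**Figure D1:**
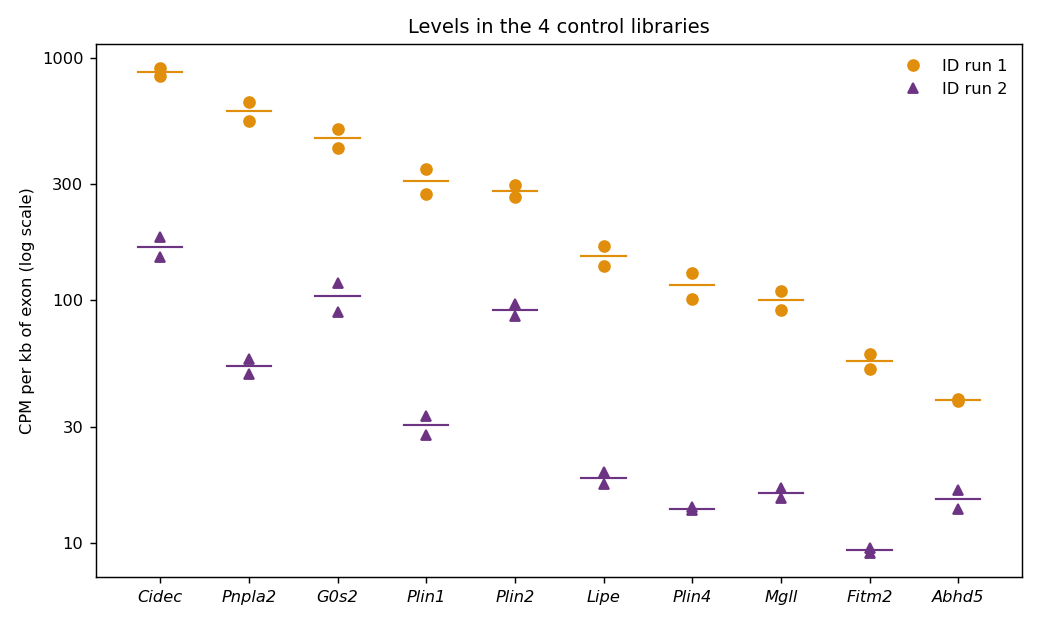
Level of each gene in the 4 control libraries, as CPM per kilobase of exon on a log scale, with circles for run 1, triangles for run 2 and a line at each run's mean. All 10 genes are lower in run 2, and the order of genes differs between the runs.

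With both runs in 1 model, the let-7d mimic lowered 3 of the 10 genes: Lipe, Mgll and Fitm2. Of all genes, 16.2% were called and 9.81% were called lower, so 3 of 10 lower is to be read against that share. The let-7e mimic lowered Fitm2 alone, and 9.50% of all genes were called, 5.69% lower. Without control 1, 5 genes were called with let-7d (Plin1 and Plin4 in addition) and 4 with let-7e (Lipe, Mgll, Plin4 and Fitm2). The median log2 difference over the 10 genes was -0.19 with let-7d and -0.054 with let-7e, while that over all genes tested was -0.0022 and -0.0019.

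Of the 3 lipases, Lipe had the widest difference from control over both runs with each mimic. In run 1 Lipe stood at 812 and 983 CPM in the controls, 757 and 774 with let-7d and 783 and 743 with let-7e. In run 2 it stood at 115 and 103 CPM in the controls, 59.7 and 60.7 with let-7d and 93.3 and 78.5 with let-7e. In both runs every mimic library lay below both controls, and in run 2 the let-7d libraries were also below the let-7e libraries. Over both runs Lipe differed by -0.52 ± 0.11 with let-7d (adjusted p = 0.00365, edgeR), 1.44-fold lower, and by -0.29 ± 0.11 with let-7e (adjusted p = 0.103), which was not called. Within run 2 the let-7d difference was -0.86 ± 0.10 (adjusted p = 0.000219) and within run 1 -0.23 ± 0.094 (adjusted p = 0.143).

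Mgll, the last lipase of the sequence and the gene with 2 seed matches above, stood in run 1 at 463 and 556 CPM in the controls, 430.1 and 453 with let-7d and 514 and 511 with let-7e. In run 2 Mgll stood at 85.6 and 77.9 CPM in the controls, 56.4 and 47.7 with let-7d and 67.7 and 58.9 with let-7e. The let-7d libraries lay below the controls in both runs, whereas the let-7e libraries did so in run 2 and fell between the controls in run 1. Over both runs Mgll differed by -0.42 ± 0.091 with let-7d (adjusted p = 0.00512, edgeR) and by -0.18 ± 0.090 with let-7e (adjusted p = 0.265). Within run 2 the let-7d difference was -0.65 ± 0.10 (adjusted p = 0.00175) and the let-7e difference -0.37 ± 0.10 (adjusted p = 0.0741).

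Pnpla2, whose product makes the first cut, had no seed match. In run 1 Pnpla2 stood at 1659.6 and 1984 CPM in the controls, 1831 and 1855 with let-7d and 1821 and 1721 with let-7e, and the mimic libraries lay between the controls. In run 2 it stood at 173 and 151 CPM in the controls, 117 and 133 with let-7d and 154 and 157 with let-7e, with the let-7d libraries below both controls and the let-7e libraries among them. Within run 2 let-7d lowered Pnpla2; it fell by 0.37 ± 0.096 on the log2 scale (adjusted p = 0.0287, edgeR), while over both runs the difference of -0.17 ± 0.085 was not called (adjusted p = 0.201). The let-7d effect on Pnpla2 in run 2 minus that in run 1 was -0.39 ± 0.13 (adjusted p = 0.219), not called. The run 2 call was lost without control 3, let-7d 3, let-7d 1 or let-7d 2. With let-7e Pnpla2 differed by -0.050 ± 0.084 (adjusted p = 0.787).

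The messages of the activator and the inhibitor of this first lipase were not called by edgeR with either mimic, over both runs or within a run, with all libraries in the fit. Abhd5 was called with let-7e over both runs when control 3 was left out. Abhd5, the activator, stood in run 1 at 229 and 232 CPM in the controls, 246 and 261 with let-7d and 258 and 250.4 with let-7e, with every mimic library above both controls. In run 2 Abhd5 stood at 98.3 and 82.2 CPM in the controls, 87.1 and 91.2 with let-7d and 100.31 and 95.8 with let-7e, where the groups overlapped. G0s2, the inhibitor, stood in run 1 at 369 and 441 CPM in the controls, 361 and 381 with let-7d and 389 and 359 with let-7e, and in run 2 at 103 and 78.1 CPM in the controls, 109 and 100.02 with let-7d and 129 and 92.1 with let-7e. Its groups overlapped in both runs. Over both runs Abhd5 differed by 0.062 ± 0.058 with let-7d and 0.13 ± 0.058 with let-7e (adjusted p = 0.516 and 0.186, edgeR), and G0s2 by 0.033 ± 0.11 and 0.080 ± 0.11 (adjusted p = 0.884 and 0.731). The log2 ratio of G0s2 to Pnpla2 counts moved in opposite directions in the runs. In run 1 it was -2.17 and -2.17 in the controls, -2.34 and -2.28 with let-7d and -2.23 and -2.26 with let-7e, with every mimic library below both controls. In run 2 it was -0.75 and -0.95 in the controls, -0.11 and -0.42 with let-7d and -0.26 and -0.77 with let-7e, with the let-7d libraries above both controls and the let-7e libraries overlapping with them. The mean of the differences in the 2 runs, 0.22 with let-7d (p = 0.333) and 0.13 with let-7e (p = 0.667) in exact two-sided permutation tests within runs, joins these opposite signs. The smallest p this test allows is 0.0556, and the difference between the runs in the ratio was not tested.

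Among the droplet coat proteins, Plin1 guards the droplet surface of mature adipocytes. In run 1 Plin1 stood at 1278 and 1608 CPM in the controls, 1354 and 1402 with let-7d and 1440.2 and 1345 with let-7e, and in run 2 at 155 and 129 CPM in the controls, 104 and 115 with let-7d and 142 and 129 with let-7e. The groups overlapped except for let-7d in run 2, where both libraries lay below both controls; that difference was -0.38 ± 0.11 (adjusted p = 0.0468, edgeR). Plin4, a coat protein of white fat that binds small droplets, stood in run 1 at 586 and 747 CPM in the controls, 660.0 and 664 with let-7d and 699.9 and 649 with let-7e, and in run 2 at 81.4 and 78.6 CPM in the controls, 61.6 and 63.5 with let-7d and 64.1 and 70.1 with let-7e. In run 2 all 4 mimic libraries lay below both controls, by -0.36 ± 0.098 with let-7d (adjusted p = 0.0373) and -0.26 ± 0.097 with let-7e (adjusted p = 0.210). These run 2 calls did not hold in general: that of Plin1 was lost in 12 of 20 alternatives and that of Plin4 in 10 of 20, both among them when control 3, let-7d 1, 2, 3 or 4, or let-7e 1 or 2 was left out. Plin1 also lost it without let-7e 3 or 4, and Plin4 without control 4. Over both runs neither Plin1 nor Plin4 was called, with let-7d differences of -0.21 ± 0.086 (adjusted p = 0.103) and -0.18 ± 0.080 (adjusted p = 0.151).

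Plin2, a perilipin that coats droplets in most cell types, stood in run 1 at 931 and 1050.0 CPM in the controls, 867 and 896 with let-7d and 981 and 946 with let-7e. In run 2 Plin2 stood at 338 and 301 CPM in the controls, 325 and 292 with let-7d and 341 and 331 with let-7e. The let-7d libraries lay below the controls in run 1 and overlapped with them in run 2, and no comparison with a mimic called it. Over both runs Plin2 differed by -0.11 ± 0.058 with let-7d (adjusted p = 0.224, edgeR) and 0.016 ± 0.058 with let-7e (adjusted p = 0.913). The log2 ratio of Plin2 to Plin1 counts with let-7d also moved in opposite directions. In run 1 it was -0.46 and -0.62 in the controls, -0.64 and -0.65 with let-7d, below both controls, and -0.55 and -0.51 with let-7e, between them. In run 2 it was 1.13 and 1.22 in the controls, 1.65 and 1.34 with let-7d and 1.26 and 1.36 with let-7e, with every mimic library above both controls. The mean of the differences in the 2 runs was 0.11 with let-7d (p = 0.5) and 0.070 with let-7e (p = 0.278) by the same exact permutation test.

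Cidec and Fitm2 act on droplet size and birth. In run 1 Cidec stood at 1564 and 1678 CPM in the controls, 1561 and 1582 with let-7d and 1831 and 1792 with let-7e, and in run 2 at 338 and 280.1 CPM in the controls, 216 and 234 with let-7d and 410.1 and 349 with let-7e. The let-7e libraries lay above both controls in both runs, and the let-7d libraries lay below both controls in run 2 and overlapped with them in run 1. Cidec differed by 0.23 ± 0.096 with let-7e (adjusted p = 0.155, edgeR) and -0.24 ± 0.096 with let-7d (adjusted p = 0.105) over both runs, neither of which was called, and by -0.45 ± 0.095 with let-7d within run 2 (adjusted p = 0.00950), which was and was lost without control 3 or let-7d 3. With let-7e in run 2, Cidec was called without control 3. Its single seed match, printed above, lies at base 925 of a 3′UTR of 931 bases.

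Fitm2 was the one gene of the set called with both mimics over both runs. In run 1 Fitm2 stood at 206 and 239 CPM in the controls, 190.3 and 195 with let-7d and 206 and 196 with let-7e. In run 2 it stood at 37.9 and 36.1 CPM in the controls, 24.2 and 26.0 with let-7d and 29.8 and 28.0 with let-7e. Every let-7d library lay below both controls of its run, as did every let-7e library of run 2, while in run 1 the let-7e and control libraries overlapped. Over both runs Fitm2 differed by -0.37 ± 0.070 with let-7d (adjusted p = 0.00220, edgeR) and -0.24 ± 0.070 with let-7e (adjusted p = 0.0387). The let-7e call over both runs was lost when any 1 of the 4 let-7e libraries, control 2, control 3, control 4 or let-7d 1 was left out. It was also lost with library totals alone as scaling, without a term for ID run and with replicate numbers as a block. Its 3′UTR of 3127 bases, the longest of the 10, held no seed match.

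**Figure D2:**
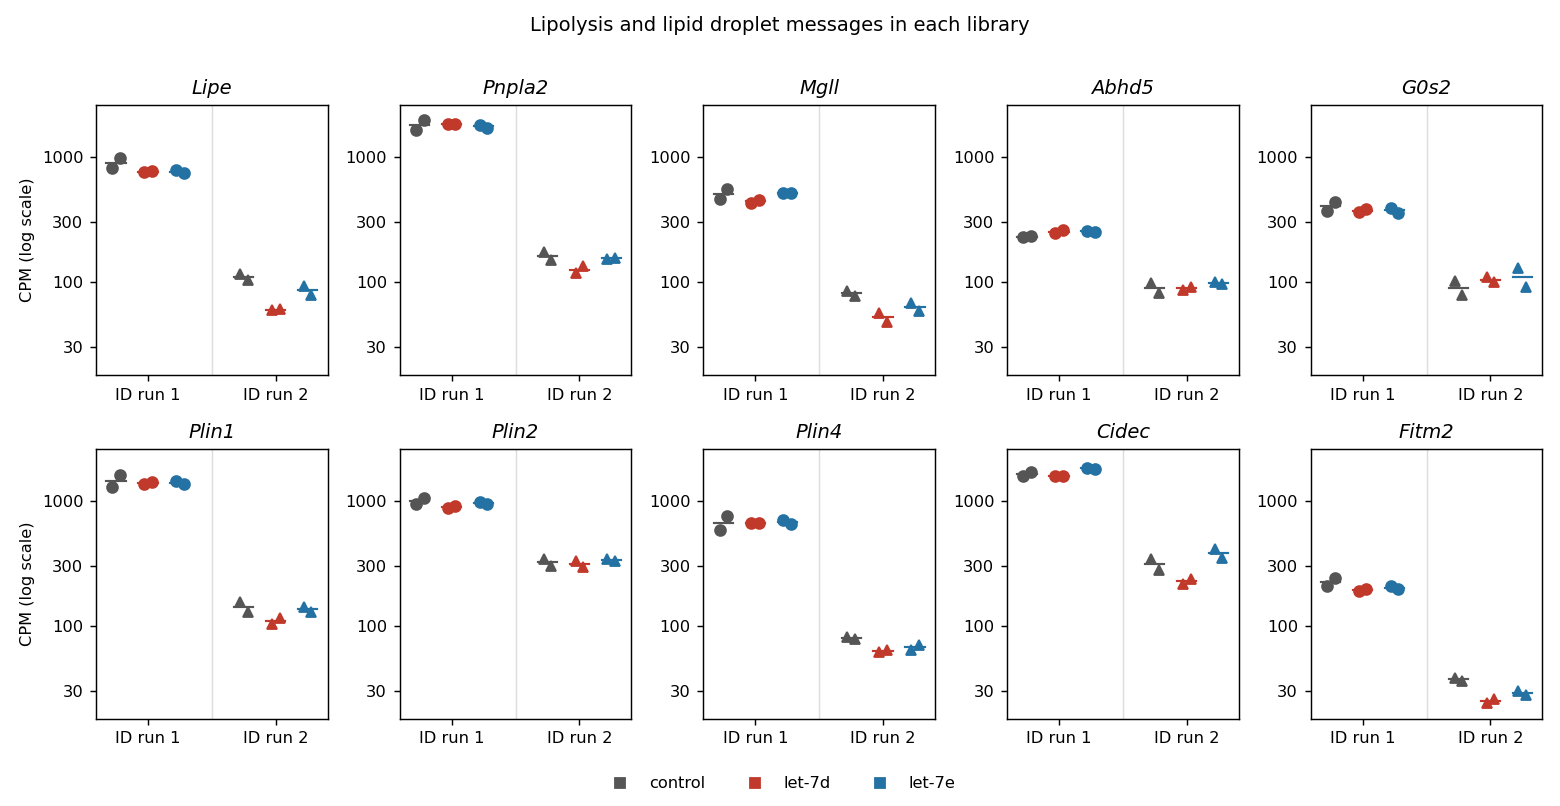
CPM of each gene in each of the 12 libraries on a shared log scale, with circles for run 1, triangles for run 2, grey for control, red for let-7d, blue for let-7e and a line at each mean of 2 libraries. The gap between runs exceeds every gap between groups, and in run 2 the let-7d libraries of 7 genes lie below both controls.

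Run by run, the let-7d mimic lowered 7 of the 10 genes in run 2 and called 0 in run 1. In run 2 these were Lipe, Pnpla2, Mgll, Plin1, Plin4, Cidec and Fitm2, beside 8.56% of all genes called and 5.26% called lower. In run 1, where 10.9% of all genes were called, 2 of the 10 passed an unadjusted p of 0.05, and DESeq2 and limma-voom also called 0. The share of all genes at an unadjusted p under 0.05 is not given, so counts at that level, here and below, have no background. Without control 1, 2 were called in run 1, Lipe and Fitm2. Counted by the libraries alone, 7 genes had both let-7d libraries below both controls in run 2 and 4 in run 1 (Lipe, Mgll, Plin2 and Fitm2), against 27.6% of all genes in each run. Both lay above both controls for 0 genes in run 2 (22.8% of all genes) and for Abhd5 in run 1 (27.0%). The let-7e libraries lay below both controls for Lipe in run 1 (27.0% of all genes) and for Lipe, Mgll, Plin4 and Fitm2 in run 2 (21.7%), and above them for Abhd5 and Cidec in run 1 (24.8%) and Cidec in run 2 (20.4%). The run 2 count rests on single libraries: without control 3 or let-7d 3 it was 3 (Lipe, Mgll and Fitm2), and without let-7d 1 or let-7d 2, which enter through the shared estimate of spread, it was 4 (with Cidec).

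The difference between the 2 runs in the let-7d effect was tested for itself, and none of the 10 genes was called (0.241% of all genes were). Lipe came nearest, with -0.63 ± 0.14 (adjusted p = 0.0686, edgeR). An unadjusted p of 0.05 was passed by 6 of the 10, with no share of all genes to set beside it. DESeq2 called 1, Lipe, limma-voom called 0, and edgeR called Lipe when control 2 was left out. An effect of let-7d that differs between the runs was thus not called by any tool for the other 9 genes. With let-7e, 1 of the 10 was called in run 2, Fitm2 at -0.36 ± 0.082 (adjusted p = 0.0333), beside 2.48% of all genes, and 0 in run 1, beside 7.12%. DESeq2 called 3 in run 2 (Lipe, Mgll and Fitm2). With single libraries left out the run 2 count was 0 to 3: Lipe and Mgll were added without control 1 or control 2, and Fitm2 was lost without control 3 or 4, let-7d 1 or 2, or any let-7e library. In run 1 DESeq2 and limma-voom also called 0, 1 gene passed an unadjusted p of 0.05, and Lipe was called without control 1. The let-7e effect was not called different between the runs for any of the 10 by edgeR, DESeq2 or limma-voom, with 0.00635% of all genes called and 1 of the 10 at an unadjusted p under 0.05.

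**Figure D3:**
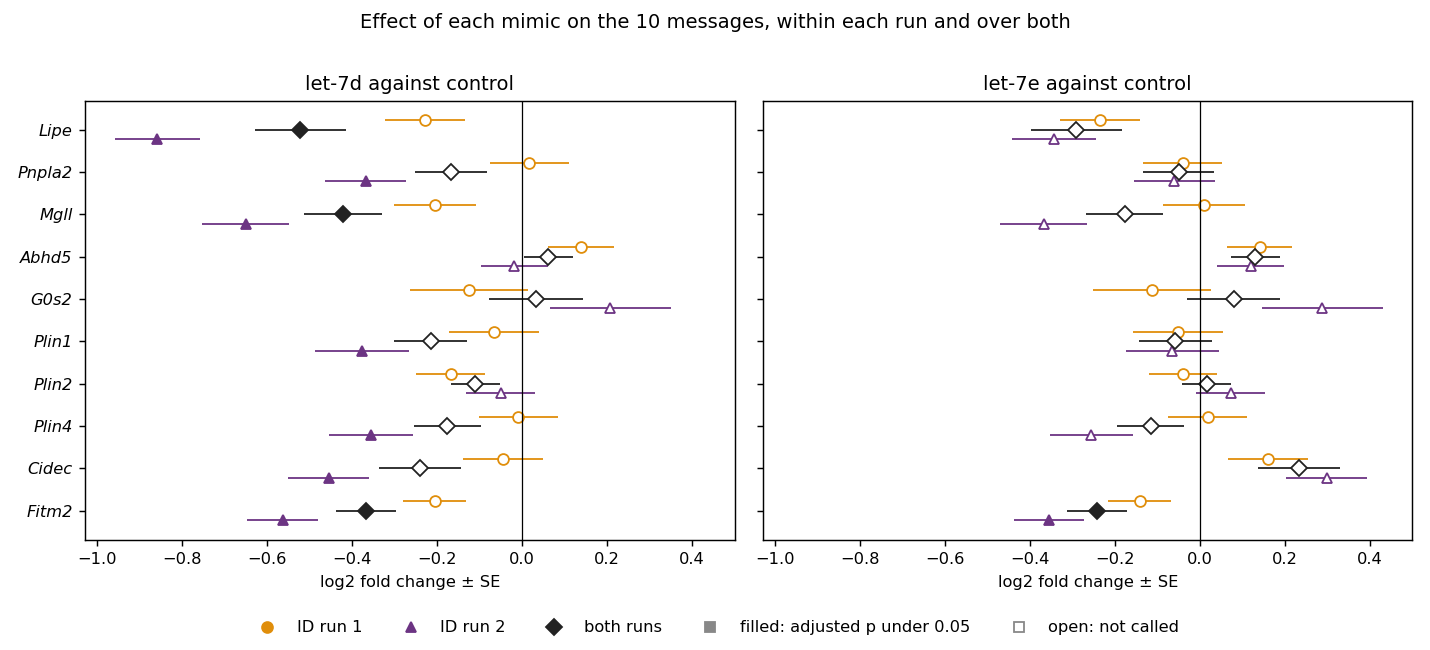
Log2 fold change ± SE of each gene with let-7d (left) and let-7e (right) against control, as circles for run 1, triangles for run 2 and diamonds for both runs, filled where the adjusted p is under 0.05. With let-7d, 7 of the 10 triangles are filled and no circle is, and with let-7e only the Fitm2 triangle and diamond are.

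The mimics were also compared with each other. All 10 genes were lower with let-7d than with let-7e, by -0.047 (G0s2) to -0.47 (Cidec) on the log2 scale, and 0 were called (edgeR), beside 0.152% of all genes. The median was -0.13 over the 10 genes and -0.0042 over all genes, and the share of all genes lower is not given. The 10 genes were read in the same libraries, so their common direction is not 10 separate observations. Cidec differed by -0.47 ± 0.097 (adjusted p = 0.0790), and 4 of the 10 passed an unadjusted p of 0.05, again without a share of all genes. DESeq2 called 1, Cidec, limma-voom called 0, and edgeR called Cidec when control 3 was left out. The let-7d libraries of Cidec lay below the let-7e libraries in both runs. The comparisons with control share their control libraries, so their values stand side by side without a test of likeness.

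Other cells of the fraction were followed by marker lists, also drawn up with earlier results of these data known. Macrophage markers, 10 of 10 measured, summed to 24.95 to 34.8 CPM in the run 2 controls, 59.2 to 127 with let-7d and 43.1 to 66.2 with let-7e, and to 190.5 to 281 in run 1. With let-7d in run 2, 5 of the 10 rose by edgeR (Cd68, Lyz2, Cd14, Mrc1 and Tyrobp), beside 8.56% of all genes called. The median log2 difference over the list was 1.70. DESeq2 called Cd68, Lyz2, Itgam and Mrc1 there, and limma-voom Cd68, Lyz2 and Cd14. Several markers were near the floor, with lowest values of 0.29 CPM for Tyrobp and 0.37 CPM for Mrc1. In run 1 the median was 0.0060 with let-7d, and Cd14 and Csf1r were called lower with let-7d (-0.61 and -0.48, adjusted p = 0.0292 and 0.0325, edgeR) and with let-7e (-0.92 and -0.47, adjusted p = 0.00414 and 0.0427). One defining marker, Itgam, was at 0 in 1 control library, and no other marker of the lists was at 0 in any library. Adipocyte markers summed in run 2 to 1346 to 1833 CPM in controls, 1302 to 1548 with let-7d and 1351 to 1553 with let-7e, and smooth muscle and pericyte markers to 6731 to 7074, 5346 to 5854 and 5687 to 5803. With let-7d in run 2, 2 of 10 preadipocyte markers rose (Pdgfra and Dpp4), 1 of 8 endothelial markers rose (Pecam1), and none of 7 mesothelial and 8 smooth muscle and pericyte markers was called by edgeR (0 and 2 at an unadjusted p under 0.05, DESeq2 0 and 1, limma-voom 0 and 0). Over both runs, where Lipe, Mgll and Fitm2 were called, let-7d lowered 3 of the 8 smooth muscle and pericyte markers (Acta2, Myh11 and Des). All 8 were negative, with a median of -0.23. Of the 10 preadipocyte markers, let-7d raised 4 (Pdgfra, Dpp4, Ly6a and Dcn) and lowered 1 (Thy1). It also raised Cd68 and Lyz2 and lowered the endothelial marker Eng. Let-7e over both runs gave much the same for 2 of these lists. It lowered Acta2 and Myh11, with all 8 negative and a median of -0.24. It raised Pdgfra, Dpp4 and Ly6a and lowered Thy1. Of all genes, 16.2% were called with let-7d and 9.50% with let-7e. In run 1 let-7d lowered Myh11, Des and Thy1 and raised Pdgfra and Ly6a, beside 10.9% of all genes called (7.12% with let-7e). Of the 9 adipocyte markers measured, Acvr1c alone was called in run 1 by edgeR, and it rose. It differed by 0.39 ± 0.079 with let-7d and 0.30 ± 0.078 with let-7e (adjusted p = 0.00561 and 0.0340). Its let-7d effect differed between the runs by -0.73 ± 0.14 (adjusted p = 0.0484, edgeR), which limma-voom did not call. DESeq2 did not call the let-7e rise. Adipor2, a receptor for adiponectin, was the 1 of 9 adipocyte markers that edgeR called with let-7d in run 2, where the list's median was -0.20. Pparg differed there by -0.41 ± 0.12 (adjusted p = 0.0516, edgeR). DESeq2 called Pparg as well as Adipor2, and limma-voom Adipor2 alone. The part of these shifts in the lower droplet and lipase messages was not tested.

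The pathway around the 10 genes was described from lists drawn up by function, with earlier results of these data known. Of 27 genes of lipolytic signalling, from adrenergic and adenosine receptors to protein kinase A and the phosphodiesterases, 4 fell and 2 rose with let-7d, with a median of -0.049, beside 16.2% of all genes called and 9.81% called lower. Prkar2a, a regulatory subunit of protein kinase A, fell with both mimics, by 0.59 ± 0.064 with let-7d (adjusted p = 2.76e-05, edgeR) and 0.46 ± 0.063 with let-7e (adjusted p = 0.000289). So did Adora1, the adenosine receptor that restrains lipolysis, by 0.58 ± 0.17 and 0.58 ± 0.17 (adjusted p = 0.0281 and 0.0395). Pde3b, the phosphodiesterase through which insulin lowers cyclic AMP, fell by 0.27 ± 0.072 with let-7d (adjusted p = 0.0169), and Pde4d by 0.29 ± 0.081 (adjusted p = 0.0238). With let-7d, the calls of Adora1, Pde3b and Pde4d were each lost without control 2 or let-7d 4. Adora1 also lost it without control 3, Pde3b without let-7d 3, and Pde4d without control 1, let-7d 1 or let-7d 2. With let-7e, Adora1 lost its call without control 2, 3 or 4, let-7d 1 or any let-7e library. The genes that rose with let-7d were Adcy4 and Prkar1a, named after their values were seen; the call of Prkar1a was lost without control 2 or 4 or let-7d 1, 2 or 3. With let-7e 2 of the 27 fell and 2 rose, beside 9.50% of all genes called and 5.69% called lower. Those that rose were Prkar1a (0.21) and the inhibitory G protein subunit Gnai1 (0.21). The Gnai1 call was lost without control 1, 2 or 4, let-7d 1 or 4, or any let-7e library.

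Prkar2a is shown by sequence as well, since its 3′UTR held an 8mer match, a kind found in 3.74% of 3′UTRs and in none of the 10 genes.
Prkar2a, 8mer, chr9:108750116-108750123, plus strand: gaattattgtgCTACCTCAaaggtaaaa

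Of 12 other lipases and cofactors, Lpl, the lipoprotein lipase that cuts triglyceride in the circulation, rose with both mimics. It rose by 0.21 ± 0.068 with let-7d (adjusted p = 0.0455, edgeR) and 0.26 ± 0.068 with let-7e (adjusted p = 0.0247). The let-7d call of Lpl was lost in 13 of 22 alternatives, among them without control 1 or 4, any let-7d library or any let-7e library, and its let-7e call without control 1 or 4 or let-7e 1, 3 or 4. Aadac, a lipase of the endoplasmic reticulum, rose by 1.00 ± 0.17 with let-7e (adjusted p = 0.00170). Of these 12 genes, edgeR called 1 with let-7d and 2 with let-7e, beside 16.2% and 9.50% of all genes. The list's medians were 0.028 and -0.032. Of 16 other droplet proteins, Mettl7a1 rose by 0.67 ± 0.11 with let-7d (adjusted p = 0.000527), while Ldah, a droplet hydrolase, differed by -0.27 ± 0.054 (adjusted p = 0.00331) and Bscl2, which encodes seipin, by -0.18 ± 0.053 (adjusted p = 0.0327). These 3 were the only ones of the 16 that edgeR called with let-7d, beside 16.2% of all genes. The Bscl2 call was lost without control 2 or 3 or let-7d 1, 3 or 4. With let-7e, Mettl7a1 was called without let-7e 3. With all libraries, none of the 16 was called with let-7e by edgeR, and 2 passed an unadjusted p of 0.05 (DESeq2 called 1, Rab7, named after its values were seen, and limma-voom 0).

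The 15 genes of triglyceride esterification, the pathway opposite to lipolysis, were 4 lower and 1 higher with let-7d, with a median of -0.11, beside 9.81% of all genes called lower. Gpd1, which makes the glycerol backbone, fell by 0.48 ± 0.15 (adjusted p = 0.0337, edgeR) and the acyltransferase Agpat2 by 0.41 ± 0.078 (adjusted p = 0.00210). Gpat4 and Agpat1 fell by 0.24 and 0.22 (adjusted p = 0.00150 and 0.0124). Gpam rose with both mimics, by 0.20 and 0.29 (adjusted p = 0.0356 and 0.00630), and was the only gene of the 15 that edgeR called with let-7e (DESeq2 called Gpam, Gpat4 and Agpat2, limma-voom Gpam). Without control 3 or 4 or let-7d 3 or 4 Gpd1 lost its call, as Gpam did with let-7d without control 1 or 4 or let-7d 1, 2 or 3. Within run 2, let-7d lowered 6 of the 15, with a median of -0.25, beside 5.26% of all genes called lower. Of 9 adipocyte markers, Adipor2 fell by 0.29 ± 0.085 with let-7d over both runs (adjusted p = 0.0269) and none was called with let-7e by edgeR, DESeq2 or limma-voom, with 1 at an unadjusted p under 0.05. The Adipor2 call was lost without control 2 or 3 or let-7d 3 or 4. Over both runs, 16.2% of all genes were called with let-7d and 9.50% with let-7e.

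**Figure D4:**
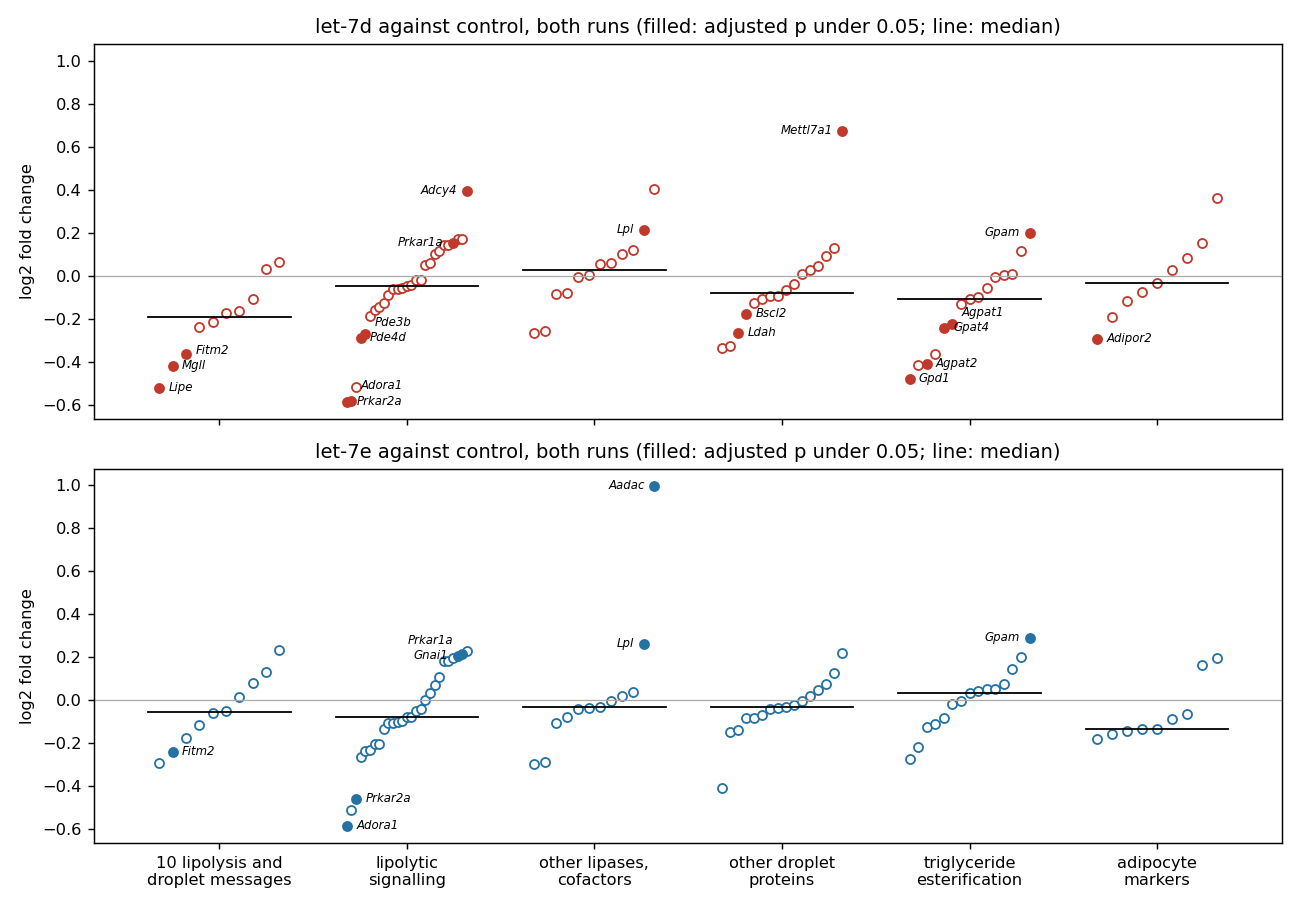
Log2 fold change of each gene of 6 lists with let-7d (top) and let-7e (bottom) over both runs, 1 point per gene in rising order, filled where the adjusted p is under 0.05, with a line at each list's median. The median of the 10 lipolysis and droplet genes lies at -0.19 with let-7d and -0.054 with let-7e.

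How the 10 genes varied together was described by Pearson's r of log2 CPM over 12 libraries after each run's mean was removed, which still holds the effect of the mimics. Of 45 pairs 40 had a positive r, with a median of 0.55. Lipe and Fitm2 (0.956), Pnpla2 and Plin1 (0.950) and Lipe and Mgll (0.902) were the closest pairs, and G0s2 and Plin4 (-0.252) the most distant. Among 10972 genes, the closest to Lipe were Trarg1 (0.973), Abcg1 (0.972) and Apol6 (0.970), and to Fitm2 Pcx (0.984), Apol6 (0.976) and Nat8l (0.974). Cat (0.915) and Adipor2 (0.914) were among the 3 closest to Pnpla2. The closest to Plin1 were Hsd17b12 (0.956), Adipor2 (0.944) and Hsd17b4 (0.923), and to Mgll Itga7 (0.950), Cd164 (0.941) and Slc18b1 (0.936). For Plin4 they were Atl3 (0.944), Ncoa1 (0.944) and Tmcc3 (0.939), and for G0s2 Ndufs7 (0.932), Atp5g3 (0.916) and Sod2 (0.903). For Cidec they were Gpd1 (0.929), Sugp1 (0.912) and Vgf (0.904), and for Abhd5 Slc36a2 (0.921), Lin37 (0.914) and St3gal6 (0.912). Plin2 had the lowest values, with Immp1l (0.884), Ube2n (0.875) and Mettl4 (0.870). The points share libraries and depth, so these values are descriptions.

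Promoters were read because PPARγ is a known activator of several of these genes and rosiglitazone was in every culture. In RefSeq promoters (250 bases before to 50 after the start, GRCm38.p6), the half-site AGGTCA repeated after 1 base of any kind, with at most 2 mismatches on either strand, occurred in 1 of 13 promoters of the 10 genes, that of Plin2, and in 1268 of 32851 promoters in all, or 3.86%. The match is in capitals below, on the gene's strand, and reads as the motif on the opposite strand.
Plin2, chr4:86670272-86670284, gene on the minus strand: agctttcaGGACCCCTGACCTaagtcaga
The absence of these letters in the other windows draws no statement about the factor.

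In the GENCODE vM21 annotation of GRCm38, the 10 protein-coding genes lie on 7 chromosomes: Lipe (25379527 to 25398710, minus strand), Pnpla2 (141455198 to 141460743, plus) and Plin1 (79720218 to 79732903, minus) on chromosome 7, Mgll (88724412 to 88828360, plus) and Cidec (113424634 to 113435760, minus) on chromosome 6, and the others on 5 further chromosomes. These are Abhd5 on chromosome 9 (122351608 to 122381524, plus), G0s2 on chromosome 1 (193272161 to 193273217, minus), Plin2 on chromosome 4 (86648386 to 86670060, minus), Plin4 on chromosome 17 (56100591 to 56109803, minus) and Fitm2 on chromosome 2 (163466379 to 163472629, minus). Exons of 5 of them overlap a gene on the other strand, and without the strand setting of the counting such reads cannot be told apart. The antisense partners of Lipe, Mgll, Abhd5 and Fitm2 had at most 1.92%, 0.460%, 0.659% and 1.10% of the CPM of the gene, in any library. Plin4 shares 17 bases of exon with Hdgfl2, whose CPM was up to 80.6% of that of Plin4.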

How the data were processed

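Total RNA of 12 libraries of mouse primary adipocytes was measured, 4 per group, with groups and replicate numbers taken from the sample titles. The authors deposited a table of raw read counts for each Ensembl gene. STAR and the build GRCm38.p6 are named per the submitters' processing notes; for the read counter and its strand setting nothing is given in the sources used here. A second deposited table was not used here, because the gene lengths its values imply differed between libraries by a median ratio of 69.4 over 9799 genes.

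Of 15754 gene identifiers, 15736 matched GENCODE vM21 without their version number, and edgeR's filterByExpr kept all 15754. Counts were fitted in R 4.3.3 with edgeR 4.0.16 (TMM scaling, glmQLFit, glmQLFTest), with group and ID run as terms over both runs (8 residual degrees of freedom), and with a mean for each group and run for effects within a run (6). The standard error is the fold change divided by the root of F. P-values were adjusted by Benjamini-Hochberg over all genes. Reads are not molecules, and the depth of at least 639 counts per gene and library limits counting error only.

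The 10 genes and the gene lists were chosen with earlier results of these data known. All 10 are given in every library. Of the other lists, genes called with either mimic were named, at most 4 per list and comparison by p, as were the 3 genes most like each of the 10 (average log2 CPM of at least 2). One gene of the latter is not reported here. Alternatives were DESeq2 1.42.0, limma-voom (limma 3.58.1), other scalings, filters and fits, and leaving out each library. The script was tested on simulated data.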

Additional observations from a re-analysis of the deposited data

How the results depend on the processing

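The directions of called genes held in every alternative run, and no call turned. The let-7d calls of Lipe, Mgll and Fitm2 over both runs held in 21 of 22 alternatives and were lost without a term for ID run, where 0 of the 10 genes were called with let-7d and 0 with let-7e (all genes: 7 and 0, from 2555 and 1496). That fit leaves the gap between the runs in its error. Among the alternatives counted here and above, the fit with no filter repeated the main fit, since filterByExpr had kept all 15754 genes. With library totals alone as scaling, let-7e called 0 and the difference between runs in the let-7d effect 1 (Lipe). DESeq2 called 1 for let-7d against let-7e, 3 for let-7e in run 2 and 1 for the difference between runs with let-7d. With only the 2 groups compared in the fit, let-7e called 2 and let-7d against let-7e 1. With only the 6 libraries of run 2, let-7e called 0 in that run, and all genes called there were 740 with let-7d and 197 with let-7e (1348 and 390 with all libraries).

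Leaving out 1 library at a time gave 3 to 5 of the 10 genes with let-7d, 0 to 4 with let-7e, 0 to 1 for let-7d against let-7e, and 10 to 10 between runs. Within run 1 it gave 0 to 2 with let-7d and 0 to 1 with let-7e, and within run 2 it gave 3 to 7 with let-7d and 0 to 3 with let-7e. The difference between runs gave 0 to 1 with let-7d and 0 to 0 with let-7e. A run with a group cut to 1 library assumes that this library varies like the others. Over all genes these fits called 429 to 1872 (let-7d) and 255 to 1264 (let-7e) in run 1, 334 to 1545 and 138 to 484 in run 2, 844 to 1606 with let-7e over both runs, 3 to 38 between the mimics and 0 to 219 and 0 to 153 for the differences between runs. Over all genes, alternatives with all libraries called 1 to 122 between the mimics, 16 to 194 for the difference between runs with let-7d and 0 to 52 with let-7e, against 24, 38 and 1. The cause of these changes was not tested. Averaged over the runs, the difference in the log2 ratio of G0s2 to Pnpla2 was 0.14 to 0.30 (let-7d) and 0.0042 to 0.26 (let-7e) and that of Plin2 to Plin1 0.030 to 0.18 and 0.031 to 0.11.

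The main fits did not pair libraries by replicate number. The correlation of deviations of same-numbered libraries within runs was -0.157 to 0.439, highest for control and let-7d in run 2. With 2 libraries per group and run, these values cannot decide whether same-numbered libraries are paired. With the replicate block, 3 of the 10 genes were called with let-7d, 0 with let-7e and 0 between the mimics, where all genes called fell from 24 to 5.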
